A study of Mus musculus with 6 samples.

Results

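DNA replication genes are described here in granulocyte-monocyte progenitors, marrow cells from which neutrophils and monocytes develop. Members were all genes that the deposited table annotates with the exact Gene Ontology term for DNA replication and that had 10 or more reads in at least 3 of the 6 libraries. Of 118 annotated genes among the 16539 in the table, 116 were kept. Just outside the limit, Adra2a had 0 reads and Nfib 3 reads in the library of the third-highest count, and just inside it Fhit had 23 and Poln 42. Mcm3 and Mcm5, subunits of the replicative helicase that mark the group, were both members and abundant.

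The cells were sorted from the bone marrow of wild-type mice 3 days after myocardial infarction, in which heart muscle dies for lack of blood flow. All mice had infarction, with 3 libraries from controls and 3 after sleep fragmentation, the repeated interruption of sleep. The design text asks how these progenitors multiply and become neutrophils, and transcript levels of replication genes measure neither directly. The labels do not give the age of the mice, the way sleep was fragmented, or whether a library held 1 mouse or several, and the spread that the p-values measure, between these libraries alone, may be technical.

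A cell copies its DNA by first licensing origins. The origin recognition complex, Cdc6 and Cdt1 load rings of Mcm2 to Mcm7 onto DNA, and kinases then recruit Cdc45 and the GINS complex to turn each ring into a moving helicase. Polymerases alpha, delta and epsilon synthesise DNA behind it, and the sliding clamp PCNA holds polymerase delta to the DNA. Transcription of many of these genes rises before S phase under E2F factors. Genes of mitosis rise later under factors that bind CCAAT boxes or CHR elements. Progenitors of neutrophils divide rapidly, and dividing stops as the cells mature.

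Some promoters of licensing and helicase genes hold letters of the E2F motif, and 4 that do are shown as examples. Sequences are from RefSeq (GRCm38.p6), 250 bases before to 50 after the start, 5′ to 3′, and capitals mark the E2F letters on either strand, which are TTCCCGC, the variant TTCGCGC, the variant TTGCCGC and the variant TTGGCGC, and can overlap each other. They are Mcm3 (chr1:20820263-20820562, minus strand), Mcm5 (chr8:75109259-75109558, plus strand), Mcm6 (chr1:128359656-128359955, minus strand) and Cdt1 (chr8:122567765-122568064, plus strand).
Mcm3: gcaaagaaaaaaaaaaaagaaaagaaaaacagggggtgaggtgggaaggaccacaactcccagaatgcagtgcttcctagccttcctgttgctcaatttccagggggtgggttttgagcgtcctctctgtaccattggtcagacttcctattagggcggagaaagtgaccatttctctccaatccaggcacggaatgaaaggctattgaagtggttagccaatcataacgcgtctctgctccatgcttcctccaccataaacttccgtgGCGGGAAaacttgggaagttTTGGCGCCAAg
Mcm5: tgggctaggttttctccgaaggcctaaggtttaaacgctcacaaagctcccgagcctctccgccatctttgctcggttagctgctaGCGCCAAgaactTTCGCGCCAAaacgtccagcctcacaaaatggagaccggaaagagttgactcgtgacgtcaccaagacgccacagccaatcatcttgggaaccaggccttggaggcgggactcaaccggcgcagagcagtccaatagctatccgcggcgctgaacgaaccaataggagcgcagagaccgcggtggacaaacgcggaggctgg
Mcm6: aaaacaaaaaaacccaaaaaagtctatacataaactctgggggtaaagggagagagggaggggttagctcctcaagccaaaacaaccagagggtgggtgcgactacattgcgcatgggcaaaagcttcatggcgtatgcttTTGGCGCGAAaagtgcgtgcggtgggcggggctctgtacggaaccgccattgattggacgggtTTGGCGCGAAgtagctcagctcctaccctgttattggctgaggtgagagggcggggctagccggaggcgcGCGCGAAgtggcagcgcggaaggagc
Cdt1: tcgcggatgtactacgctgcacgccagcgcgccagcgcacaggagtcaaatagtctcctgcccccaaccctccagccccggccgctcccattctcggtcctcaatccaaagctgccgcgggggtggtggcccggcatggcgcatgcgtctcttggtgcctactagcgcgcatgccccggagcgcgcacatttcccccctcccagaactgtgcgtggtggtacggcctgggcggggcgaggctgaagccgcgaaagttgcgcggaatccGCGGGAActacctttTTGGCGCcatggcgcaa

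Mcm6 held 5 matches, Mcm3 and Mcm5 held 3 each and Cdt1 held 2. The reference table had promoters for 94 of the 116 members. Of their 115 promoters, 46 (40.0%) held a match, against 16.2% of the 12424 promoters of genes tested and 9.57% of all 32851. The core machinery, defined below, had 52 promoters of 43 genes, as some of its genes had several and others none. Of these promoters, 28 held a match (53.8%), with Cdc6, Orc1, Pola1, Prim1, Fen1, Lig1 and Rpa2 among the genes. Of the 63 promoters of members outside the core machinery, 18 did (28.6%). The CHR element, TTTGAA or TTCGAA on either strand, was in 8 of the 52 core promoters (15.4%) and 14.4% of the promoters of genes tested. For comparison, of 17 promoters of genes of G2 and M phase 13 held a CHR element (76.5%), 15 held CCAAT (88.2%) and 2 held the E2F letters (11.8%). CCAAT was also in 26 of the 52 core promoters (50%), 51.3% of member promoters and 38.2% of the promoters of genes tested. Core genes whose promoters held no E2F match in this window included Orc2, Orc5, Orc6, Lrwd1, Mcm2, Cdc45, Ticrr, Mcm10, Dbf4 and Pcna. Those of Pola2, Pold2, Pold4, Rfc5, Rpa1, Dna2 and Ssbp1 held none either, nor did that of Samhd1, outside the core. Matches describe letters and are not evidence of binding.

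Total counts lay between 28971253 and 31665923 a library, and between 14047 and 14265 genes were detected. Members had between 7 and 16580 reads in a library. Genes listed for the gate, granule genes such as Mpo among them, were found in all libraries, at unlike levels (Kit 150.1 to 193 CPM, Cd34 27.5 to 66.0 CPM, Mpo 7000.4 to 11557 CPM). CPM is the count per 1000000 reads after scaling by TMM factors. Over 6 genes each, red cell markers summed to 3.41 to 17.1 CPM in control and 9.98 to 19.7 CPM after sleep fragmentation, and B cell markers to 12.6 to 19.8 and 12.7 to 18.2 CPM. Of 6 markers of T and NK cells, Nkg7 had 168 to 259 CPM, and Cd3e, which defines T cells, 0 to 0.11 CPM. Markers of eosinophils, basophils and mast cells were not low, with sums over 7 genes of 2756 to 4606 CPM in control and 3356 to 4774 CPM after sleep fragmentation. Late granule genes, made by maturing neutrophils, summed over 14 genes to 48199.7 to 84479 CPM in control and 53934 to 131997 CPM after sleep fragmentation. Their highest sum was in sleep fragmentation replicate 1, the library that also stood apart for replication genes. Sleep fragmentation replicate 3 was near it, with 121582 CPM. In bulk samples, fewer cells of a type and less RNA per cell cannot be told apart.

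Fitted levels were slightly lower than in control for most replication genes, and no change passed the test. Of 116 members, 90 (77.6%) had a log2 fold change below 0, against 51% of the 12097 genes tested. The median log2 fold change of the members was -0.10, or 93.1% of the control level, and that of all genes was -0.004. The 52 members with core roles in licensing, helicase, firing, polymerases, clamp and lagging strand had a median of -0.12, with 46 below 0, and the other 64 a median of -0.07, with 44 below 0. Single members ranged from -0.41 (Repin1) to 0.62 (Samhd1).

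By edgeR's quasi-likelihood test with Benjamini-Hochberg adjustment over all genes, 0 members were called at an adjusted p under 0.05, where 0% of all genes were called. At an unadjusted p under 0.05 there were 5 members, where the background was 2.82% of all genes. Of these, 3 were lower, where the background was 0.661% of all genes, namely Cdt1, Pole and Pif1. The other 2, Samhd1 and Rrm2b, were higher, where the background was 2.16%. DESeq2 and limma-voom also called 0 members, with 3 at an unadjusted p under 0.05 by each. Of all 12097 genes, 443 by DESeq2 and 338 by limma-voom were under that limit. The groups did not overlap in 11 members that were lower, where the background was 3.84%, and in 1 that was higher, where the background was 2.92%. The 11 were Dscc1, Cdt1, Pif1, Pole, Mcm5, Ticrr, Dtl, Pold1, Chaf1a, Pold3 and Kat7, and the 1 was Samhd1. The unadjusted 95% interval lay within 1.5-fold either way for 99 of 116 members and for 54% of all genes.

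**Figure D1:**
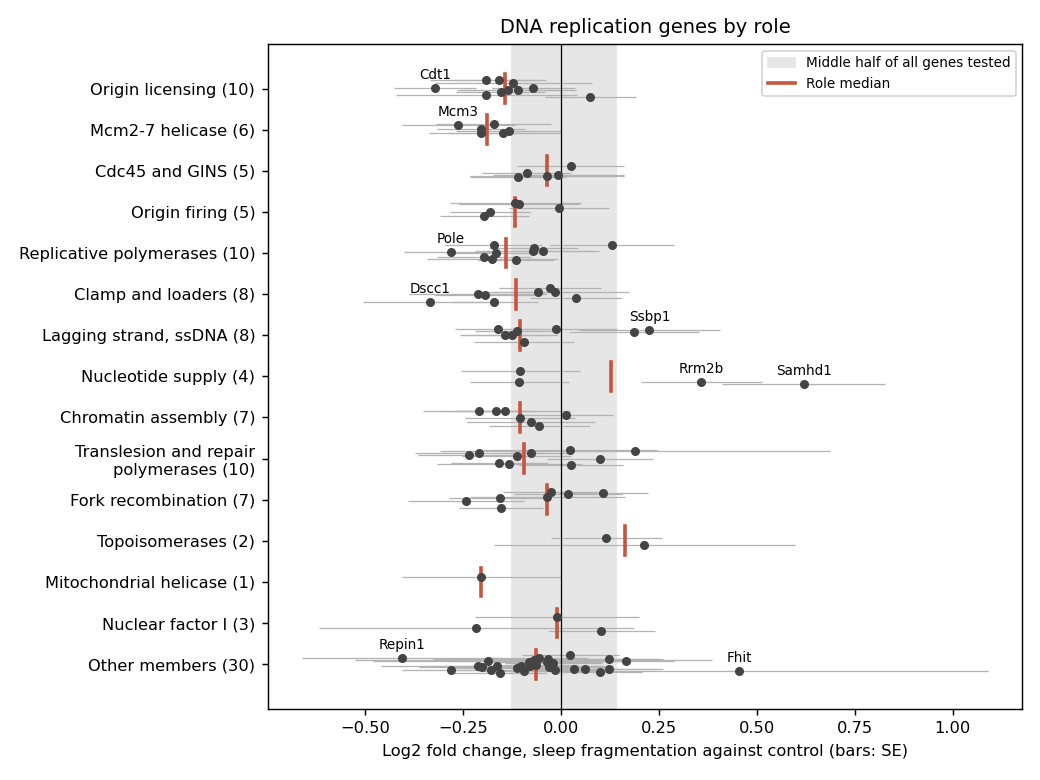
Log2 fold changes of the 116 members by role, with the number of members in parentheses; points are genes, horizontal bars are SE, red marks are role medians and the grey band spans the middle 50% of all genes tested. Most roles have medians below 0, between -0.01 and -0.20, while nucleotide supply (0.13) and topoisomerases (0.16) have medians above it.

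**Figure D2:**
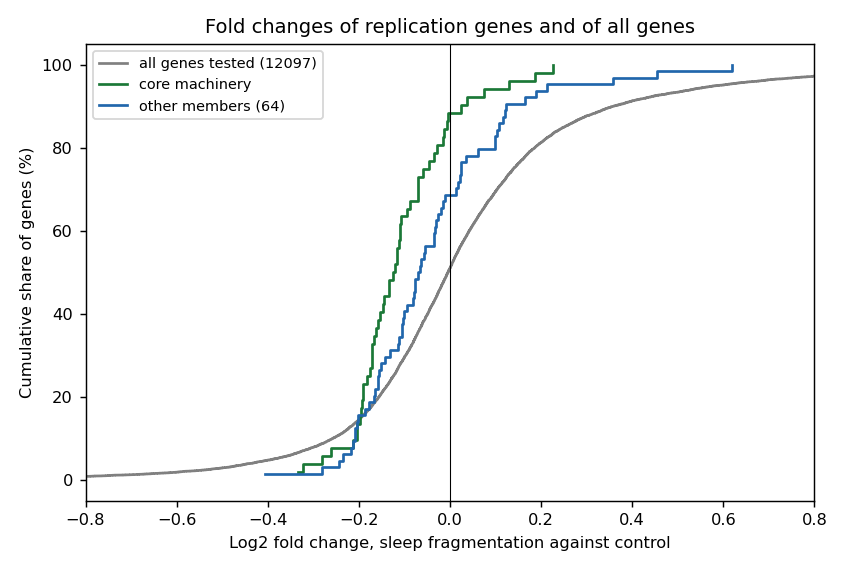
Cumulative share of genes (%) against log2 fold change for all 12097 genes tested, the 52 core members and the other 64. At 0 the curves stand at 51%, 88.5% and 68.8%.

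The shift did not have the same size in every library. Relative to the mean of the 6 libraries, the median log2 level of the members was 0.11, 0.01 and 0.04 in the 3 controls, in order of replicate number, and -0.16, 0.03 and -0.01 after sleep fragmentation. Control replicate 1 was high, sleep fragmentation replicate 1 was low, and the other 4 lay between them with overlap. Sleep fragmentation replicate 1 had the lowest level of 59 members (50.9%, against 28.5% of all genes), and control replicate 1 the highest of 45 (38.8%, against 16.5%). Levels were below those of all 3 controls for 70 members (60.3%) in sleep fragmentation replicate 1, 33 (28.4%) in replicate 2 and 46 (39.7%) in replicate 3. The shares over all genes were 35.4%, 19.7% and 25.9%. Reads of members took 1.32%, 1.19% and 1.29% of the raw counts in the controls and 1.02%, 1.25% and 1.13% after sleep fragmentation. These shares are without TMM factors. When scaled by library size only, all genes had a median log2 fold change of -0.11.

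Without sleep fragmentation replicate 1 the median was -0.05, with 73 members below 0, and without control replicate 1 it was -0.06, with 82. Without replicate 1 of both groups it was -0.02, with 65 members below 0. These were the highest and the lowest library for the members, so leaving out both brings the median nearer 0 by selection. Where they were the extremes of a single gene, its value likewise moves towards or past 0 in that fit. Late granule genes stood at -0.29, 0.18 and -0.68 in the controls and at 0.97, -0.51 and 0.51 after sleep fragmentation, on the same scale of median log2 levels. The library with the highest late granule level, sleep fragmentation replicate 1, had the lowest level of replication genes. The other libraries did not follow that order throughout. Sleep fragmentation replicate 3 was also high for late granule genes (0.51), with a members' median of -0.01. Control replicate 3 was lowest for them (-0.68), with a members' median of 0.04, below the 0.11 of control replicate 1. The 9 genes listed for the progenitor gate include granule genes and the transcription factor Cebpa, which are not surface markers for sorting. Of the 9, 7 were also lowest in sleep fragmentation replicate 1, namely the surface markers Kit and Cd34 and Mpo, Elane, Prtn3, Ctsg and Cebpa. The other 2 were not: Fcgr3, a receptor that defines the gate, was highest there, at 401 CPM against 291 to 379 CPM in the other libraries, and Fcgr2b, at 148 CPM, was above all 3 controls. Over the 9 genes the medians by library were 0.10, 0.003 and 0.14 in control and -0.37, 0.17 and -0.05 after sleep fragmentation, and their log2 fold changes had a median of -0.21, with 7 below 0 and 0 called. With the late granule score as a covariate the members' median was -0.03, with 64 below 0. All 14 late granule genes had log2 fold changes above 0, so that fit cannot fully separate their score from the groups. The same holds for the values of single genes with this covariate below. The part of the genes listed for the gate in the difference, and that of late granule genes, was not tested.

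**Figure D3:**
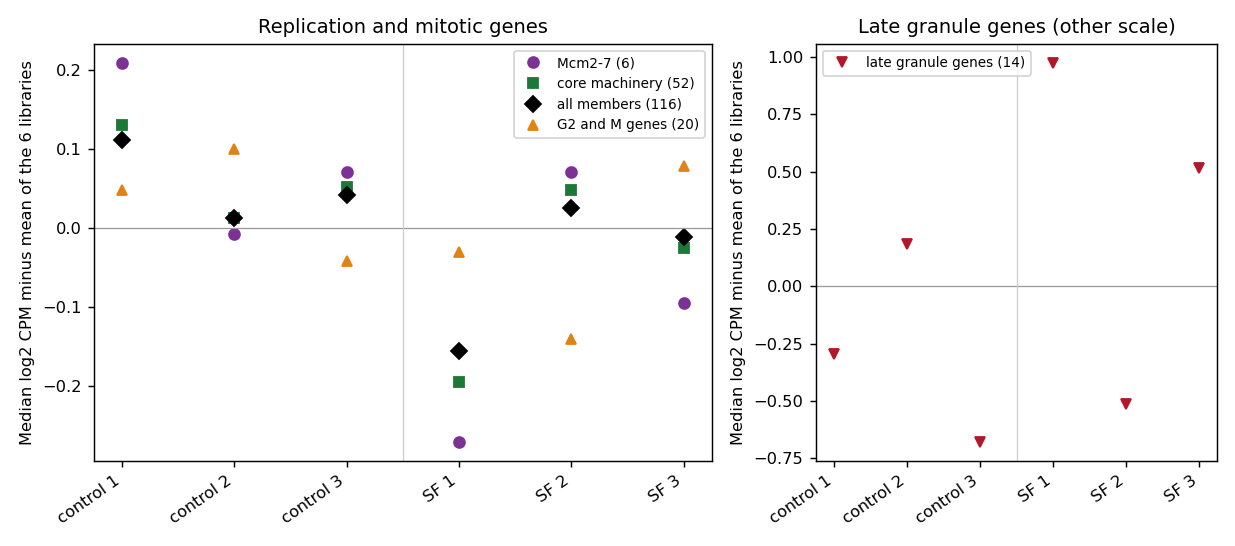
Median log2 CPM minus the mean of the 6 libraries, by library (SF, sleep fragmentation), for replication and mitotic genes (left) and late granule genes (right, other scale). Replication genes are lowest in SF 1 (-0.16 for all members), where late granule genes are highest (0.97), while G2 and M genes are lowest in SF 2 (-0.14).

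Origin licensing was represented by 10 members, of which 9 had values below 0 (median -0.14), with 0 called. Cdt1, which brings the helicase ring to origins, had 99.6, 90.0 and 97.9 CPM in the controls and 77.4, 80.0 and 72.6 CPM after sleep fragmentation. All 3 levels after sleep fragmentation lay below all 3 control levels. The log2 fold change was -0.32 (SE 0.10, unadjusted 95% interval -0.56 to -0.09), short of the threshold in edgeR's test (adjusted p = 0.99988). Cdt1 moved little when single libraries were left out, between -0.28 and -0.36, and was -0.26 with the late granule covariate.

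Cdc6, the ATPase that works with Cdt1, had 103, 97.7 and 97.5 CPM against 83.2, 100.2 and 84.7 CPM, and the groups overlapped through sleep fragmentation replicate 2. Orc1, the largest subunit of the origin recognition complex, had 25.3, 19.2 and 19.6 against 13.8, 25.2 and 17.2 CPM. Orc6, its smallest subunit, had 69.1, 54.8 and 59.9 against 46.8, 61.4 and 62.2 CPM. In both Orc genes replicate 1 was the highest control and the lowest library after sleep fragmentation. Orc2, Orc3 and Orc5 had log2 fold changes of -0.12, -0.13 and -0.19, and Orc4 of 0.07, with levels between 35.6 and 41.7 CPM in all libraries. Lrwd1, which binds the origin recognition complex, and Mcmbp, a partner of the Mcm proteins, had log2 fold changes of -0.16 and -0.07.

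All 6 genes of the Mcm2 to Mcm7 ring had values below 0 (median -0.19), with 0 called. All 6 also stayed below 0 when any single library was left out, but 3 of 6 did without replicate 1 of both groups and 4 of 6 with the late granule covariate. Mcm3 had 386, 309 and 329.6 CPM in the controls and 252, 323 and 279.7 CPM after sleep fragmentation, with a log2 difference of -0.26 (SE 0.14). Mcm5 had 367, 342 and 341 against 304, 309 and 298 CPM, a log2 fold change of -0.20 (SE 0.11, interval -0.46 to 0.05). It was the Mcm gene whose groups did not overlap, and its value was -0.18 with the late granule covariate, where that of Mcm3 was -0.09.

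Mcm2 had 251, 218 and 230.1 against 179, 232 and 196 CPM. Mcm4 had 288, 249 and 253 against 208, 266 and 247 CPM. Mcm6 had 523, 446 and 472 against 376, 489.8 and 436 CPM, and Mcm7 403, 306 and 349 against 276, 335 and 328 CPM. In these 4 genes sleep fragmentation replicate 1 was the lowest library, control replicate 1 the highest, and sleep fragmentation replicate 2 lay above control replicate 2. Their log2 fold changes were -0.20, -0.13, -0.15 and -0.17. Without replicate 1 of both groups, Mcm4, Mcm6 and Mcm7 turned to 0.03, 0.01 and 0.02.

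**Figure D4:**
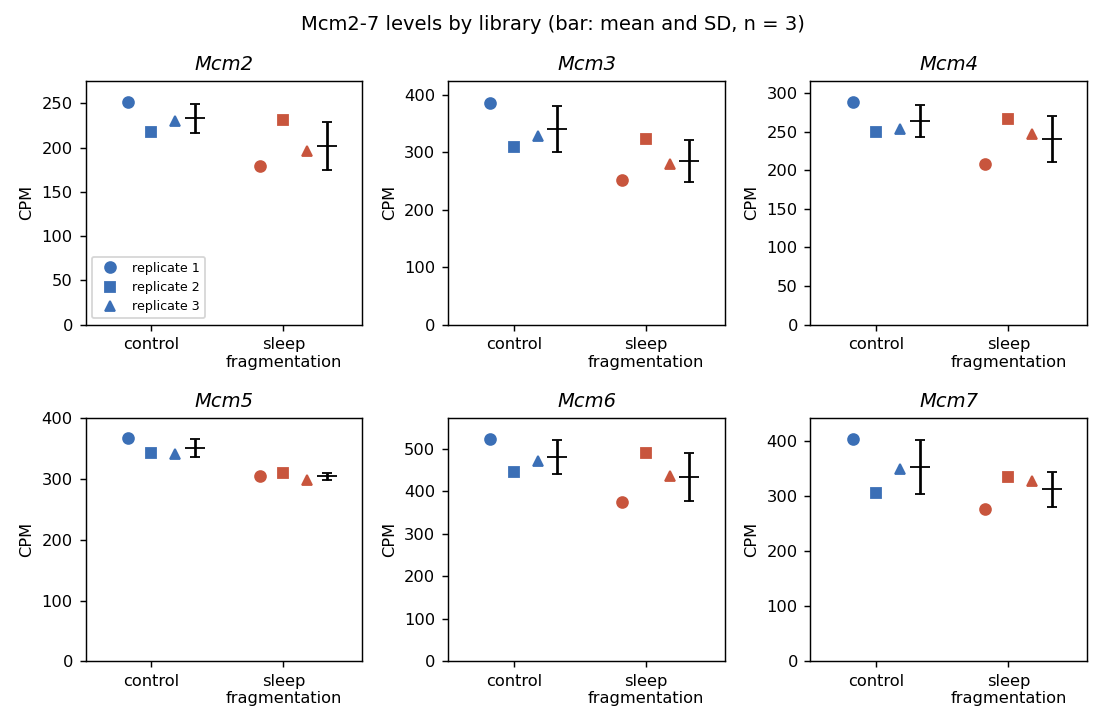
Levels (CPM) of the 6 Mcm genes in each library, with the group mean and SD (n = 3). Marker shapes give replicate numbers, which were not taken as pairs. Mcm5 shows groups that do not overlap (341 to 367 against 298 to 309 CPM), whereas Mcm2, Mcm3, Mcm4, Mcm6 and Mcm7 are lowest in sleep fragmentation replicate 1 and overlap between groups.

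The 6 subunits, which form a ring with equal parts, were close in level per length. In controls, CPM per kilobase of exon was 119 for Mcm7, 113 for Mcm3, 109.8 for Mcm6, 101 for Mcm5, 73.5 for Mcm4 and 69.1 for Mcm2, a range of 1.72-fold. Over all 116 members the median was 18.1 CPM per kilobase, and the highest were Pcna with 277 and Rrm2 with 196. Origin recognition subunits were lower and less even, from 7.09 for Orc1 and 8.34 for Orc4 to 38.4 for Orc6 and 46.3 for Orc3 CPM per kilobase. GINS subunits lay between 5.96 (Gins2) and 33.6 (Gins4). Mcm8 and Mcm9, relatives that act in recombination, had 5.35 and 3.45.

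Cdc45 and the 4 GINS genes, which complete the moving helicase, had 4 of 5 log2 fold changes below 0, with a median of -0.04 and 0 called. Cdc45 had 103, 107 and 97.0 CPM in the controls and 89.1, 93.2 and 107 CPM after sleep fragmentation, so that sleep fragmentation replicate 3 lay among the highest libraries. Gins1 had 41.9, 30.2 and 35.8 against 25.8, 41.2 and 38.1 CPM, and its sign turned without either replicate 1 (log2 fold change 0.09 without that of the controls, 0.14 without that of sleep fragmentation). Gins4 and Gins3 had log2 fold changes of -0.11 and 0.02. Of 5 members that act in origin firing, 5 had values below 0 (median -0.12) and 0 were called. Ticrr, which helps kinases recruit Cdc45, had 87.2, 88.2 and 92.1 against 74.0, 83.0 and 78.9 CPM, groups that did not overlap (log2 fold change -0.18, SE 0.10). Mcm10, which activates the helicase, had 89.0, 81.6 and 81.5 against 68.0, 81.6 and 70.4 CPM (-0.20, SE 0.11). Dbf4, the activating subunit of the Cdc7 kinase, had 105, 97.7 and 101 against 86.3, 99.9 and 116 CPM.

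Of 10 subunits of polymerases alpha, delta and epsilon and of primase, 9 had values below 0 (median -0.14) and 0 were called. Pole, the catalytic subunit of the leading strand polymerase, had 105, 94.6 and 114 CPM in the controls and 79.9, 93.8 and 84.9 CPM after sleep fragmentation. Its groups just did not overlap, and its log2 fold change was -0.28 (SE 0.12, interval -0.55 to -0.01), or -0.14 with the late granule covariate. Pold1, the catalytic subunit of polymerase delta, had 103, 111 and 117 against 102, 102 and 90.7 CPM (-0.17, SE 0.11). Pola1, the catalytic subunit of polymerase alpha, had 109.9, 103 and 114 against 92.7, 109 and 109 CPM, and Prim1, of primase, 92.6, 84.5 and 83.0 against 67.1, 93.3 and 91.6 CPM. In Pola1 and Prim1 it was sleep fragmentation replicate 1 that was low, and both signs turned without it (0.003 and 0.09). Prim2 had a log2 fold change of -0.20 (SE 0.12), and Pold4, an accessory subunit of polymerase delta, one of 0.13.

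The clamp and its loaders had 7 of 8 values below 0 (median -0.11), with 0 called. Pcna, the sliding clamp, had 433, 426 and 401 CPM in the controls and 361, 438 and 436 CPM after sleep fragmentation, with a log2 difference of -0.03 (interval -0.32 to 0.27). Sleep fragmentation replicate 1 was low and the other libraries lay close together. Dscc1, of an alternative loader that acts in sister chromatid cohesion, had 17.6, 13.3 and 14.5 against 10.9, 13.2 and 12.0 CPM, groups that touched but did not overlap (-0.33, SE 0.17). Rfc3, of the main loader, had 43.7, 37.7 and 35.2 against 25.5, 36.1 and 39.0 CPM, and Rfc5 had a log2 fold change of -0.17 (SE 0.11). Of 8 members that handle single-stranded DNA and the lagging strand, 6 had values below 0 (median -0.10) and 0 were called. Fen1, the flap nuclease, had 116, 109 and 117 against 95.1, 111 and 99.7 CPM. Lig1, the ligase that joins Okazaki fragments, had 259, 244 and 225 against 211, 221 and 227 CPM, and Rpa2, of the single-strand binding protein, 86.2, 68.0 and 79.7 against 65.7, 78.7 and 74.6 CPM. The 2 higher values were those of Ssbp1, the mitochondrial single-strand binding protein (0.23, SE 0.18), and Rbms1 (0.19, SE 0.17).

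Genes that set the supply of deoxynucleotides went both ways, with 2 of 4 values below 0 and 0 called. Samhd1, an enzyme that breaks down deoxynucleotide triphosphates and restricts retroviruses, had 183, 255 and 214 CPM in the controls and 438, 259.8 and 306 CPM after sleep fragmentation. All 3 levels after sleep fragmentation were above the controls, by a wide margin only in replicate 1. Its log2 fold change of 0.62 (SE 0.21, interval 0.15 to 1.09) was the highest of the members and short of the threshold in edgeR's test (adjusted p = 0.99988). It was 0.38 without sleep fragmentation replicate 1, 0.27 when control replicate 1 was left out too, and 0.26 with the late granule covariate. Rrm2b, the small subunit of ribonucleotide reductase that p53 induces, had 24.1, 26.8 and 24.7 against 37.5, 26.5 and 32.8 CPM (0.36, SE 0.15). Its groups overlapped through control replicate 2 and sleep fragmentation replicate 2, and the value was 0.23 without sleep fragmentation replicate 1 and 0.13 with the covariate.

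The subunits of ribonucleotide reductase used in S phase did not share that direction. Rrm1, the large subunit, had 483, 431 and 429 against 392, 407 and 448 CPM (log2 fold change -0.11, interval -0.39 to 0.18). Rrm2, the S phase small subunit, had 481, 448 and 359 against 397, 359.5 and 442 CPM (-0.10, interval -0.45 to 0.24). In both, the groups overlapped. Rrm2 was more abundant than Rrm2b per length in the controls, at 196 against 5.52 CPM per kilobase.

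**Figure D5:**
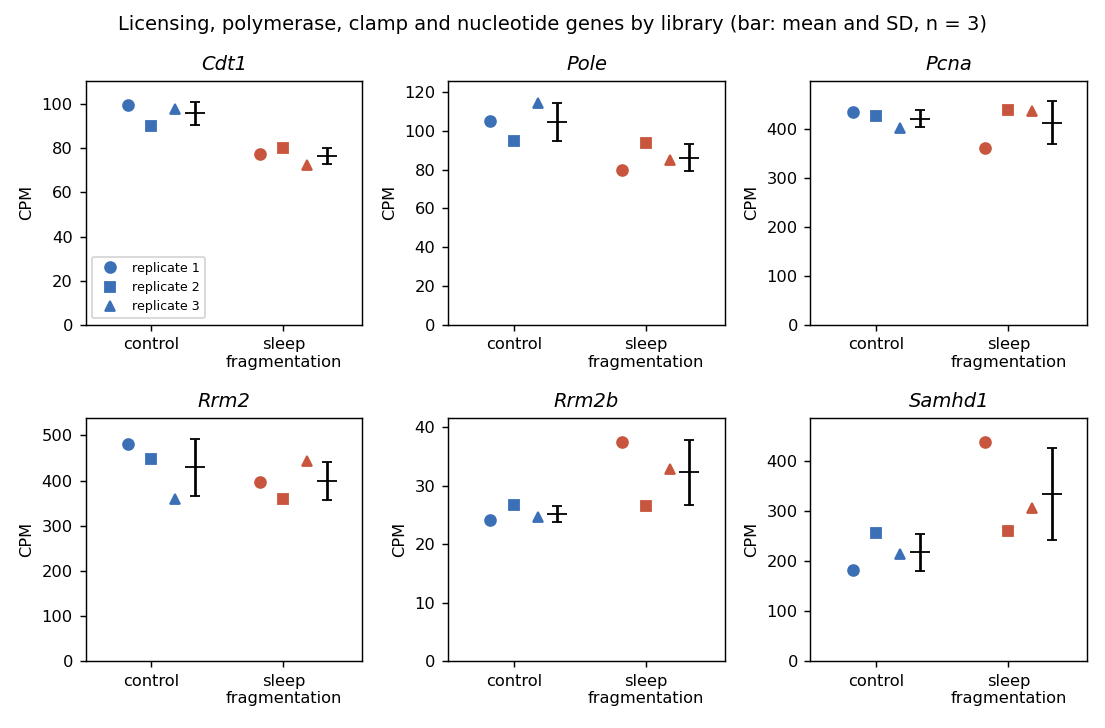
Levels (CPM) of 6 members in each library, with the group mean and SD (n = 3). Cdt1 and Pole lie lower after sleep fragmentation and Samhd1 higher, without overlap, while Pcna, Rrm2 and Rrm2b overlap; no difference passed the test over all genes.

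Of 7 members that load histones behind the fork, 6 had values below 0 (median -0.11), 0 were called, and all 7 were lowest in sleep fragmentation replicate 1. Chaf1a, the large subunit of chromatin assembly factor 1, had 136, 129 and 132 against 112, 115 and 127 CPM without overlap (-0.17, SE 0.11), and Chaf1b had a log2 fold change of -0.21 (SE 0.14). Translesion and repair polymerases had 6 of 10 values below 0 (median -0.10), with 0 called, and 2 of the 10 (20%) were lowest in sleep fragmentation replicate 1, against 28.5% of all genes. The 10 include Polg and Polg2, of the mitochondrial polymerase, counted here because this role came first (log2 fold changes of 0.02 each). Polq, of end joining, had 58.0, 52.6 and 50.2 against 40.1, 51.5 and 45.0 CPM, and Polh, which copies past ultraviolet damage, 58.0, 62.6 and 54.8 against 57.6, 45.6 and 54.0 CPM. Of 7 members of fork recombination 5 were below 0 (median -0.03) and 0 were called. Blm, the helicase mutated in Bloom syndrome, had 94.3, 67.2 and 75.4 against 59.0, 69.8 and 71.3 CPM. Helb had a log2 fold change of -0.15 (SE 0.11).

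Members of the other roles were few, with 0 called. Top1 and Top1mt, a nuclear and a mitochondrial topoisomerase, had log2 fold changes of 0.12 (SE 0.14) and 0.21 (SE 0.38), and Twnk, the mitochondrial helicase, -0.20 (SE 0.20). Nfia and Nfic, of a family first known from viral replication and now chiefly as transcription factors, had -0.22 (SE 0.40) and 0.10 (SE 0.14). The remaining 30 members had a median of -0.06, with 22 below 0. Pif1, a helicase that resolves unusual DNA structures, had 36.4, 42.2 and 41.5 against 33.9, 34.7 and 30.2 CPM without overlap (-0.28, SE 0.12). Repin1, a zinc finger protein, had the lowest value of the members, from 7.26, 6.11 and 9.25 against 4.90, 7.17 and 4.98 CPM, with overlap. In these 30 genes sleep fragmentation replicate 1 was the lowest library for 7 (23.3%), against 34 of the 52 core members (65.4%).

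Replication genes outside the exact annotation were followed in the fixed role lists, where 66 of 68 were tested. Of these, 49 had values below 0 (74.2%, median -0.08), 0 were called, and 0 had an unadjusted p under 0.05. The groups did not overlap in 5 that were lower, namely Zranb3, Brip1, Tk1, Top3a and Fancm, where the background was 3.84% of all genes, and in 1 that was higher, Primpol, where it was 2.92%. Clspn, an adaptor of the replication checkpoint, had 146, 121 and 128 CPM in the controls and 109, 114 and 122 CPM after sleep fragmentation. Its log2 fold change was -0.20 (SE 0.12). Gmnn, the inhibitor of Cdt1, had 99.5, 77.7 and 80.6 against 68.7, 85.6 and 89.0 CPM (-0.08, SE 0.14). Sleep fragmentation replicate 1 was lowest for 38 of the 66 (57.6%).

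The list of E2F factors and their partners holds activators such as E2f1 and E2f2 as well as repressors such as E2f6, E2f7, E2f8, Rbl1 and Rbl2, and had 9 of 13 values below 0 (median -0.05), with 0 called. E2f1 had 56.7, 56.2 and 58.6 against 57.6, 53.7 and 52.3 CPM, and E2f2 177, 235 and 154 against 296, 143 and 206 CPM. Sleep fragmentation replicate 1, lowest for most core replication genes, was lowest for 3 of the 13 (23.1%, against 28.5% of all genes). Among the 20 G2 and M genes, 17 had values below 0 (median -0.08), with 0 called and 1, Nek2, at an unadjusted p under 0.05. Here the low library was another: 18 of the 20 were below all controls in sleep fragmentation replicate 2, 6 in replicate 1 and 5 in replicate 3. For the 52 core replication members those counts were 16, 40 and 25. Mki67, a marker of cycling cells, had 1588, 1651 and 1413 against 1509, 1272 and 1562 CPM. Whether the replication and mitotic genes differ in their response was not tested.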

How the data were processed

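The 6 RNA-seq libraries, of polyA RNA, were grouped by their titles, 3 a group. The deposited values are raw read counts per gene. The submitters' processing notes name fastp, HISAT2, HTSeq and the build GRCm39. Versions and strand setting are not given in the sources used here. Without a strand setting, reads of a gene and its antisense partner cannot be told apart, and reads shared with processed pseudogenes may be lost or misplaced.

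The tests used edgeR 4.0.16 (R 4.3.3): filterByExpr (minimum count 10, minimum total 15; 12097 genes, all 116 members among them), TMM scaling, estimateDisp and the robust quasi-likelihood F-test, adjusted by Benjamini-Hochberg over all genes tested at 0.05. A log2 fold change above 0 is a higher level after sleep fragmentation. limma 3.58.1 (voom) and DESeq2 1.42.0 were alternatives. On counts simulated from these libraries (5 runs, 200 of 12097 genes changed), the test recovered 0.8% of genes changed 1.2-fold, 20.8% changed 1.5-fold, 73.2% changed 2-fold and 98.8% changed 4-fold. Changed genes had a mean of at least 5 CPM. Each gene was drawn independently, without the differences between libraries that many real genes share, so recovery in the real libraries may differ. Medians by library are of log2 CPM (prior count 2). Levels per length used the union of exons in the GENCODE M21 basic set, of an earlier build. Motifs were searched on both strands.

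Members, roles and lists were chosen with earlier results of these data known. A gene in several roles was counted in the first. The genes named were 24 fixed core members (Clspn, also fixed, is not a member), the 5 highest and 5 lowest with a mean of at least 5 CPM, those at an unadjusted p under 0.05, those whose groups do not overlap, and 2 per role with the smallest p. Others were named after their values were seen. Same-numbered libraries of the groups did not deviate together (correlations over genes of -0.25, -0.37 and -0.01), so replicate numbers were not taken as pairs. The titles do not say whether the numbers pair the groups.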

Additional observations from a re-analysis of the deposited data

How the results depend on the processing

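Of the members, 0 were called by any setting tried. DESeq2 called 13 genes over the table, where edgeR called 0. The number of members at an unadjusted p under 0.05 was 5, where that of all 12097 genes tested was 341. It was 8 when scaled by library size only (328 of all genes), 3 with DESeq2 (443) and 3 with limma-voom (338). Without replicate 1 of both groups it was 3 (232 of 12205 genes). When single libraries were left out it lay between 1 and 10. It was 1 without control replicate 1 (155 of 12300 genes) and 10 without sleep fragmentation replicate 2 (1330 of 12284). With the replicate block it was 1 (169 of 12097 genes), and the replicate numbers were not taken as pairs in the main fit. The members' median of -0.10 was -0.202 under library size scaling, in which all genes had a median of -0.11. Without replicate 1 of both groups, the highest and the lowest library for the members, it was -0.0235. Without single libraries it lay between -0.05 and -0.13.

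Signs of named genes turned as follows (log2 fold changes, none called), and the cause was not tested. With library size only: Nfic (-0.0055). Over the fits without single libraries, the ranges that cross 0 were those of Gins1 (-0.17 to 0.141), Prim1 (-0.129 to 0.0917), Top1mt (-0.168 to 0.528), Orc6 (-0.181 to 0.0118), Pola1 (-0.11 to 0.0033), Pcna (-0.0771 to 0.0561) and Nfic (-0.0417 to 0.177). Without replicate 1 of both groups: Orc1 (0.127), Orc6 (0.107), Mcm4 (0.0286), Mcm6 (0.012), Mcm7 (0.0172), Gins1 (0.266), Pola1 (0.0114), Prim1 (0.142), Pcna (0.0792), Rfc3 (0.043), Rpa2 (0.0528), Nfic (-0.0744) and Nfia (0.0464). With the late granule covariate: Orc1 (0.124), Orc6 (0.0528), Mcm4 (1e-04), Mcm6 (0.0118), Gins1 (0.246), Pola1 (0.0306), Prim1 (0.0933), Pcna (0.037), Rpa2 (0.0613), Rbms1 (-0.0561), Top1 (-0.0279), Twnk (0.0348), Nfic (-0.0695) and Nfia (0.0211). Of genes changed 1.2-fold, 0.8% were recovered in simulation, so counts of 0 do not show that levels were alike.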
